A study of Mus musculus with 8 samples.

Results

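The genes described here encode the cytotoxic granule proteins of lymphocytes: 8 granzymes (Gzma, Gzmb, Gzmc, Gzmd, Gzme, Gzmf, Gzmk and Gzmm), perforin (Prf1) and serglycin (Srgn). They were taken by symbol from the deposited count files, and are 10 of the 49212 genes listed there. RNA was sequenced from sorted CD44+ regulatory T (eTreg) cells of C57BL/6 mice that carried a B16-OVA melanoma under the skin. The mice of all groups were implanted on day 0, were given NP-OVA in complete Freund's adjuvant intraperitoneally on the same day and NP-OVA in incomplete adjuvant on day 7, and had tumors of at most 1.5 cm3. The study's general methods give an age of 5 to 10 weeks and both sexes. KO stands for Prdm1fl/flFoxP3YFP-Cre mice, which lack the transcription factor Blimp1 where Foxp3 drives the Cre, and WT stands for FoxP3YFP-Cre mice. The controls therefore carry the same YFP-Cre allele. Each genotype gave 2 libraries of splenic eTreg cells and 2 of tumor-infiltrating (TIL) eTreg cells, which makes 4 groups and 8 libraries. Splenocytes were enriched with CD4 microbeads before the sort and tumor cells were not, and the stated gate in both tissues was positive for CD45, CD3, CD4, CD44 and the Foxp3 reporter YFP. The labels do not say whether the libraries of a group came from separate mice, so the p-values measure the spread between these samples.

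Cytotoxic lymphocytes store granzymes, which are serine proteases, and perforin in secretory granules, where both are bound to the proteoglycan serglycin. Perforin forms pores in the membrane of a target cell, and granzymes enter through them and cleave proteins inside. Granzyme B cleaves after aspartate and activates caspases, granzyme A and granzyme K are tryptases, and granzyme M prefers leucine or methionine. Treg cells can also carry granzyme B and perforin and use them against other lymphocytes.

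The libraries held 27834676 to 43903859 counts in exons. A floor of detection of 3 counts corresponded to 0.0683 to 0.108 CPM, which are counts scaled to the size of the library. Levels are given in CPM with TMM scaling over the 8 libraries, and replicate 1 is always named first. Prdm1, the targeted gene, was at 40.6 and 53.4 CPM in KO spleen, 54.0 and 21.0 in WT spleen, 90.7 and 75.1 in KO TIL and 108 and 192 in WT TIL libraries. The genotypes overlapped in spleen, and KO was the lower in TIL. These counts sum over all exons, so that reads of the deleted part could not be told apart from the rest of the gene. The marker genes of the sorted population were low in the libraries labelled KO TIL. Foxp3 was at 10.2 and 2.99 CPM there against 25.5 and 60.4 in WT TIL and 43.0 to 69.6 in the spleen libraries. A list of 6 Treg genes summed to 942 and 1674 CPM in KO TIL against 7868 and 10945 in WT TIL. Cd8a exceeded Cd4 in both KO TIL libraries, at 1.47 and 18.3 counts of Cd8a per count of Cd4, against 0.0890 and 0.00892 in WT TIL and at most 0.0155 in spleen. These transcripts go against the gate and the label of the KO TIL libraries, which are therefore named by their labels below and not as a verified cell type. The CD3 chains were low in KO TIL replicate 1, at 851 CPM summed over 4 genes against 3045 to 5101 in the other libraries, and 5 macrophage genes summed to 12437 CPM in that library against 180 to 2233 in the others. The summed level of 6 NK cell genes was 2066 and 469 CPM in KO TIL and 469 and 100.3 in WT TIL, but most of the sum of KO TIL replicate 1 came from Tyrobp (733 CPM) and Fcer1g (1254 CPM), which macrophages express too. Of the NK receptor genes, Klre1 was at 22.1 and 90.3 CPM in KO TIL and Klri2 at 23.3 and 35.6, against at most 5.93 and 3.05 in WT TIL. Ncr1 was at 13.4 and 1.53 CPM in KO TIL, 0.647 and 0.843 in WT TIL and 0 in spleen. Klrb1c was at 19.8 and 7.74 CPM in KO TIL and 1.40 and 0.0337 in WT TIL. In spleen Klrb1c was at 9.45 to 15.1 CPM, so KO TIL and spleen overlapped for it. The splenic libraries differed too. The summed level of the 6 NK cell genes was 667 CPM in WT spleen replicate 2 against 61.2 to 126 in the other splenic libraries. Most of that sum again came from Tyrobp (281 CPM) and Fcer1g (374 CPM). Cd4 was at 384 CPM in WT spleen replicate 2 against 875 to 1009 in the other splenic libraries. In such bulk samples, fewer cells of a type and less RNA per cell cannot be told apart.

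Gzmb, Gzmc, Gzmd, Gzme and Gzmf lie with Gzmg and Gzmn in a cluster of 7 granzyme genes within 144.6 kb (GRCm38, chr14:56117619-56262260), all on the minus strand, with Gzmb at its upper end (chr14:56258856-56262260). Gzma (chr13:113093825-113100979) and Gzmk (chr13:113171608-113225908) are neighbours on chromosome 13, and Gzmm (chr10:79689020-79695261), Prf1 (chr10:61297836-61304263) and Srgn (chr10:62493833-62527451) are on chromosome 10. The 250 bases before the RefSeq start site (GRCm38.p6) are printed for Gzmb, which behaved differently from its neighbours in these data, and for Gzmc to Gzmf, whose levels varied together across the libraries. Capitals mark exact matches to AACCACA (Runx, either strand), TGANTCA (AP-1) or TGACGTCA (CRE), and no matches overlapped.
Gzmb (minus strand, chr14:56262335-56262584): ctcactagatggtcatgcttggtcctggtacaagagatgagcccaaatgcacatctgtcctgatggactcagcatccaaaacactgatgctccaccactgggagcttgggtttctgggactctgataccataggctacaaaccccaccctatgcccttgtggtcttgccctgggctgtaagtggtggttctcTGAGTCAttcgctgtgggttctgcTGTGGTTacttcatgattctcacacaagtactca
Gzmc (minus strand, chr14:56234658-56234907): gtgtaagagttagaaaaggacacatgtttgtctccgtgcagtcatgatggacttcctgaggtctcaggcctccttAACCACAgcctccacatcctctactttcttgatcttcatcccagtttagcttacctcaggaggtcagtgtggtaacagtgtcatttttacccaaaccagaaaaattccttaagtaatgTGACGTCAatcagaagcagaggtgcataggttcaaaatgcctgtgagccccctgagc
Gzmd (minus strand, chr14:56132594-56132843): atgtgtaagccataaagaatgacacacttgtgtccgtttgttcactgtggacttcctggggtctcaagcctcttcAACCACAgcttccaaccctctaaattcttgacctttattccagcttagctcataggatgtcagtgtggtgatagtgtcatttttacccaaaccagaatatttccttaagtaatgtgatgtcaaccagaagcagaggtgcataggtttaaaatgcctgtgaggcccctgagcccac
Gzme (minus strand, chr14:56120626-56120875): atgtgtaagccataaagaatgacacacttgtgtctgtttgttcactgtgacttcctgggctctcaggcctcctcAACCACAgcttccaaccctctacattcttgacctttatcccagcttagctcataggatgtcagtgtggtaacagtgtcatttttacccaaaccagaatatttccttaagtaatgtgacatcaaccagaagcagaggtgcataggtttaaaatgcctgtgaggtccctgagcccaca
Gzmf (minus strand, chr14:56211408-56211657): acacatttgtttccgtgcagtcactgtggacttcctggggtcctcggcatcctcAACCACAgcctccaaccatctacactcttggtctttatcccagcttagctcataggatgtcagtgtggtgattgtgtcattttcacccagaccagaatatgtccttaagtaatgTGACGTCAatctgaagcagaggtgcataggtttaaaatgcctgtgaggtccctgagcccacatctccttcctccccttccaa

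The Runx letters occurred in the promoters of 6 members (Gzma, Gzmb, Gzmc, Gzmd, Gzme and Gzmf) and of Gzmg, against 4.40% of 32851 promoters of the same length. The AP-1 letters, found in 6.75% of promoters, occurred in Gzmb and in no other member. The CRE letters, found in 1.55% of promoters, were complete in Gzmc, Gzmf and Gzmg. The nearest match differed by C4T in Gzmd and by G5A in Gzme, with positions counted from 1 at the 5′ end of TGACGTCA. The letters AGNGAAAG, given for Blimp1 and present in 7.30% of promoters, were found in Gzma. TCACACC (T-box, 3.33% of promoters) occurred in Gzmk, TTCNNNGAA (STAT, 7.02%) in Gzmm and TATAAA (12.4%) in Srgn, all searched on both strands. For Gzmk the RefSeq start site lies inside the gene span given above, 44943 bases from its start. The bases before the start of that span were not searched. The 10 pairs among Gzmc to Gzmg were 84.4 to 95.6% identical over 225 to 249 aligned promoter bases and 74.0 to 94.8% identical over their transcripts. The Runx and CRE matches that these promoters share are therefore not independent of each other. Gzmd and Gzme, the closest pair at 94.8%, shared no exact stretch of 100 bases, whereas Gzmd and Gzmg did. The authors counted reads that mapped uniquely, and how many reads of the near copies were lost in this way was not measured. The transcript of Gzmb was 67.7 to 76.2% identical to the other 6 of the cluster.

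The central result was the course of Gzmb. In splenic eTreg cells Gzmb was at 1.20 and 3.22 CPM in the KO libraries, from 56 and 127 counts, and at 67.5 and 52.9 CPM in the WT libraries, from 2257 and 1484 counts. Both KO libraries lay far below both WT libraries. In the libraries labelled TIL, Gzmb was at 456 and 4288 CPM in KO and at 1985 and 1114 CPM in WT. Here the KO libraries lay on either side of the WT libraries, and the groups overlapped. The fitted difference between KO and WT was a 27.3-fold lower level in spleen (log2 -4.77 ± 0.58 SE) and log2 0.61 ± 1.0 SE in TIL. Neither passed the quasi-likelihood test of edgeR, with p-values adjusted over all genes tested after Benjamini and Hochberg, giving adjusted p = 0.190 in spleen, where 0.00% of 16583 genes passed, and 0.941 in TIL, where 0.00% of 15935 passed. In spleen the unadjusted p was 8.03e-05, the seventh smallest of all genes tested, and 3 of 8 members tested had an unadjusted p under 0.05, against 2.95% of genes. The study's own test, DESeq2 on the same 4 libraries, called splenic Gzmb (log2 -4.75 ± 0.52, adjusted p = 5.46e-16), where it called 0.416% of genes. In edgeR the log2 ran from -5.64 to -4.20 when 1 of the 4 libraries was left out. Such fits assume that the lone library varies like the other group, so only their log2 values are given here. The value in TIL rested on 1 library. Without KO TIL replicate 2 it was -1.78, and without KO TIL replicate 1 it was 1.47.

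**Figure D1:**
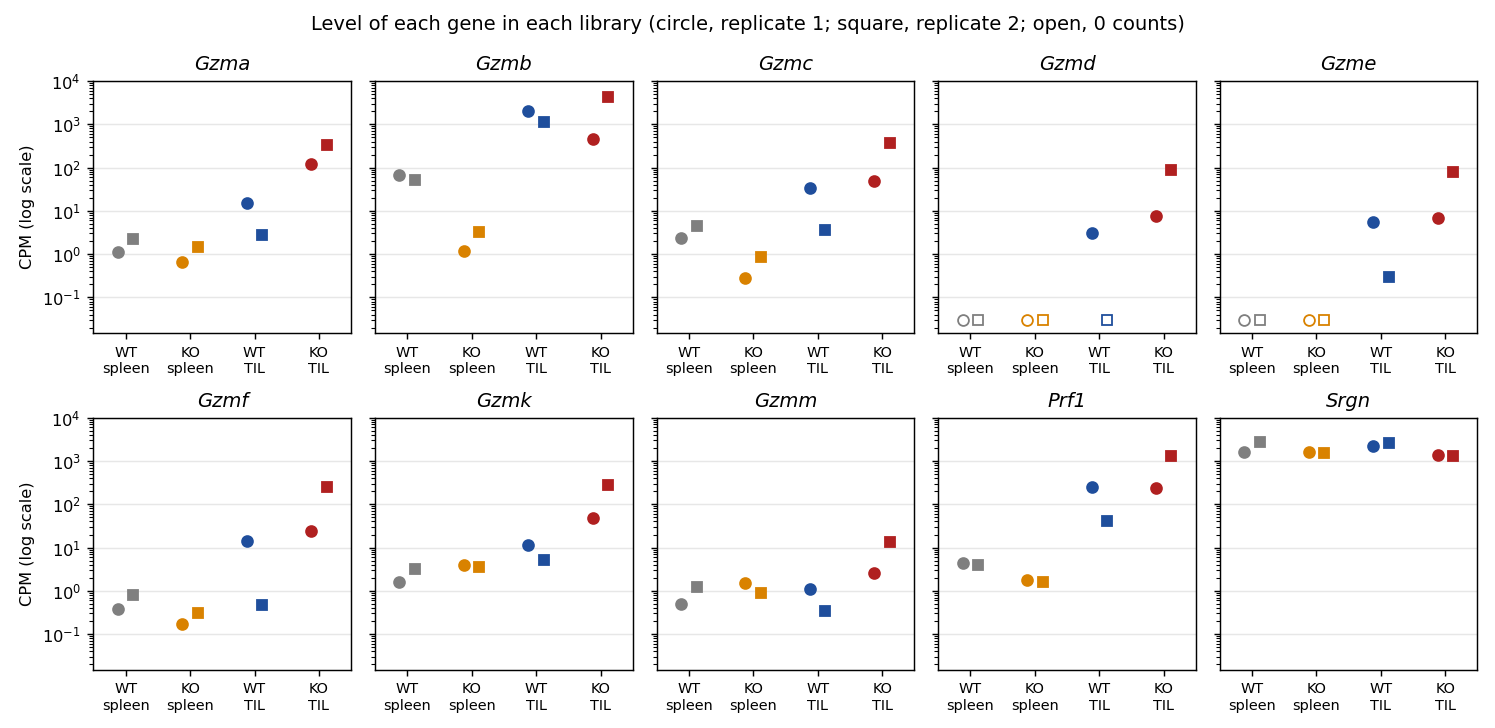
CPM (log axis) of the 10 genes in the 8 libraries, with circles for replicate 1, squares for replicate 2 and open symbols for 0 counts. KO spleen lies below WT spleen for Gzmb, Gzmc, Gzmf, Prf1 and Srgn, KO TIL lies above WT TIL for 7 granzymes, and the TIL groups overlap for Gzmb and Prf1.

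From spleen to tumor, Gzmb rose in WT cells by log2 4.69 ± 0.57 (edgeR adjusted p = 0.00200). In KO cells the difference between the tissues was log2 10.1 ± 1.59 (adjusted p = 0.0576). Every TIL library was above every splenic library of its genotype. The difference between these differences was log2 5.38 ± 1.31 in a fit over all 8 libraries. It did not pass in edgeR (adjusted p = 0.293), where 0.00% of 17870 genes passed, and it passed in DESeq2 (5.37 ± 1.12, adjusted p = 5.75e-04), where 1.85% of genes did. The estimate was lowest without KO TIL replicate 2 (3.01) and highest without KO spleen replicate 2 (6.26). The order of the group means of Gzmb was KO TIL, WT TIL, WT spleen and KO spleen, with overlap between the TIL groups and none between the other neighbours.

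In spleen the other members differed less than Gzmb. Gzmc, a granzyme of the same cluster, was at 0.279 and 0.861 CPM in KO and at 2.33 and 4.49 CPM in WT (log2 -2.59 ± 0.75, adjusted p = 0.878). Prf1 was at 1.76 and 1.57 CPM in KO and at 4.34 and 3.85 CPM in WT (log2 -1.30 ± 0.49, adjusted p = 0.878). Gzmf was at 0.172 and 0.304 CPM against 0.389 and 0.820 CPM. These 3 genes and Gzmb had no overlap between the groups, with KO the lower, and so had Srgn, at 1601 and 1554 CPM in KO and at 1632 and 2780 CPM in WT. The 5 members lower without overlap compare with 15.7% of all genes tested. Gzmk went the other way, at 3.99 and 3.52 CPM in KO and at 1.59 and 3.17 CPM in WT, without overlap (log2 0.65 ± 0.55, against 16.4% of genes higher without overlap). Gzma (0.644 and 1.50 against 1.11 and 2.25 CPM) and Gzmm (1.52 and 0.912 against 0.509 and 1.21 CPM) overlapped. Gzmd and Gzme had 0 counts in all 4 splenic libraries and were not tested. The median over the 8 members tested was log2 -0.98, and over all genes -0.02. Cd8a and Cd8b1 were also lower in KO spleen without overlap. Cd8a was at 2.96 and 2.33 CPM there against 5.21 and 5.95 CPM in WT, a fitted log2 difference of -1.08 ± 0.46 beside -4.77 for Gzmb, and its part in the result was not tested.

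In the libraries labelled KO TIL, all granzymes other than Gzmb were higher than in both WT TIL libraries. Gzma was at 119 and 336 CPM in KO and at 15.5 and 2.83 CPM in WT. Gzmk was at 48.9 and 280.2 CPM in KO and at 11.7 and 5.16 CPM in WT. On a log scale, the gap between the groups was for Gzma wider than the difference between the replicates of either group, and for Gzmk it was narrower than that between the KO replicates. Gzmm followed at a low level, with 2.60 and 13.8 CPM in KO and at 1.08 and 0.337 CPM in WT. In the chromosome 14 cluster, Gzmc was at 49.8 and 366 CPM in KO and at 33.7 and 3.58 CPM in WT. For this gene the lower KO library exceeded the higher WT library by less than the replicates differed. The groups were also close in Gzmd (7.46 and 87.0 against 3.05 and 0 CPM), in Gzme (6.88 and 80.1 against 5.42 and 0.304 CPM) and in Gzmf (24.7 and 255 against 13.97 and 0.472 CPM).

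The fitted KO to WT differences in TIL were log2 4.63 ± 1.02 for Gzma, 4.28 ± 0.98 for Gzmk, 3.53 ± 1.07 for Gzmm, 3.48 ± 1.38 for Gzmc, 4.96 ± 2.07 for Gzmd, 3.93 ± 1.66 for Gzme and 4.28 ± 1.79 for Gzmf. None passed in edgeR, where adjusted p ranged from 0.263 for Gzma to 0.540 for Gzme in these 7 genes, and 4 of the 10 members had an unadjusted p under 0.05, against 9.87% of genes. DESeq2 called 5 members higher in KO TIL (Gzma, Gzmk, Gzmm, Gzmc and Gzme), where it called 3.48% of genes higher. The 7 granzymes higher without overlap compare with 18.0% of genes. The median over the 10 members was log2 3.73, and over all genes 0.04. KO TIL replicate 2 was the library with 18.3 counts of Cd8a per count of Cd4. Without it, Gzma was still log2 3.68 higher in KO and Gzmk 2.51, while Gzmc, Gzme and Gzmf came to 1.40, 1.25 and 1.76. Without WT TIL replicate 1, the WT TIL library with more Cd8a, Gzma was 6.31 and Gzmc 5.85 higher.

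Perforin, like Gzmb, overlapped between the TIL groups. Prf1 was at 241 and 1308 CPM in KO TIL and at 244 and 42.0 CPM in WT TIL, so that KO replicate 1 and WT replicate 1 were nearly equal (log2 2.44 ± 1.12, adjusted p = 0.577). Without KO TIL replicate 2 the difference was 0.73. Serglycin, the granule proteoglycan, went the other way, at 1360 and 1283 CPM in KO TIL and 2247 and 2542 CPM in WT TIL. Its groups did not overlap (log2 -0.86 ± 0.32, adjusted p = 0.478), as in 19.4% of genes lower without overlap, and its direction turned when libraries were scaled to CD3 counts (log2 0.53 ± 1.30).

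**Figure D2:**
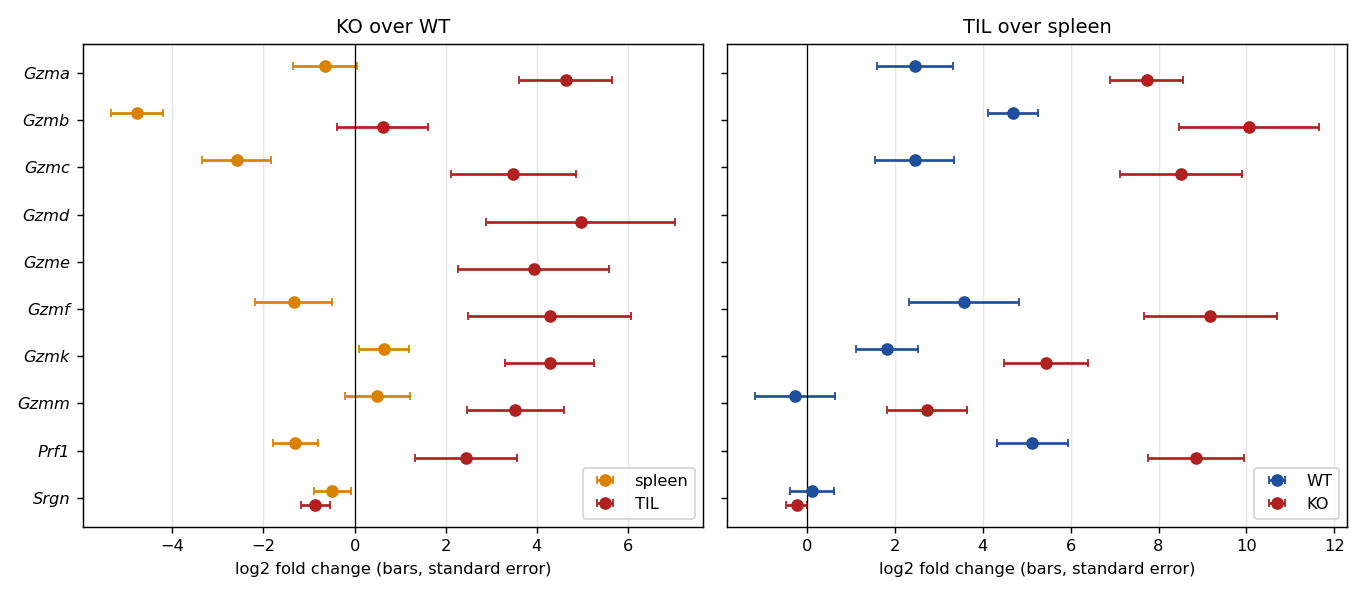
Log2 fold changes from edgeR with standard errors (bars), for KO over WT in spleen and TIL (left) and for TIL over spleen in WT and KO (right). Gzmb is the only gene of the 8 tested in both tissues whose KO to WT difference is larger in spleen than in TIL, and Gzmd and Gzme, with 0 counts in spleen, have no splenic point and no TIL over spleen point.

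Within each TIL group the granzymes and perforin followed Cd8a, which encodes a chain of the CD8 coreceptor. Cd8a was at 217 and 1214 CPM in KO TIL and at 71.8 and 9.68 CPM in WT TIL, so it was 5.59-fold higher in replicate 2 of KO and 7.42-fold higher in replicate 1 of WT. In both groups all 9 granzyme and perforin genes followed, each having its higher level in the Cd8a-richer library. In KO TIL the ratio of replicate 2 to replicate 1 was 9.40 for Gzmb, 5.73 for Gzmk, 5.42 for Prf1 and 2.82 for Gzma, and it ran from 5.29 to 11.7 in the others. In WT TIL the ratio of replicate 1 to replicate 2 was 1.78 for Gzmb, against 5.82 for Prf1, 5.48 for Gzma and 29.6 for Gzmf. Srgn was flat, at 0.943 and 0.884. A gate on CD4 and YFP should leave out CD8 T cells, and the part of Cd8a-expressing cells in these differences was not tested. The same pairs of libraries also differed in other genes. The 4 CD3 genes summed to 851 and 3184 CPM in KO TIL and to 3045 and 3901 CPM in WT TIL. For the macrophage gene Lyz2, replicate 2 over replicate 1 was 0.0880 in KO TIL, and replicate 1 over replicate 2 was 12.1 in WT TIL. How many of all genes went the same way as Cd8a in both groups was not counted.

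Counts per Cd8a count separated the genes. For Gzma the ratio stayed within 0.213 to 0.641 in all 8 libraries, and in TIL it was 0.549 and 0.277 in KO and 0.216 and 0.293 in WT, although Gzma itself spanned 0.644 to 336 CPM. For Gzmk it was 0.225 and 0.231 in KO TIL and 0.164 and 0.533 in WT TIL, and the groups overlapped. Cd8a itself differed between KO and WT TIL by log2 4.14 ± 1.28 (edgeR adjusted p = 0.393), beside 4.63 for Gzma and 4.28 for Gzmk. For Prf1 it was 1.11 and 1.08 in KO TIL against 3.40 and 4.34 in WT TIL, lower in KO without overlap. For Gzmb it was 2.10 and 3.53 in KO TIL against 27.7 and 115 in WT TIL, and 0.406 and 1.38 in KO spleen against 12.97 and 8.89 in WT spleen. Relative to Cd8a, Gzmb was lower in KO in both tissues without overlap, which was not so for its CPM in TIL. These ratios share a denominator that also differed between the groups, and they are given with no test.

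**Figure D3:**
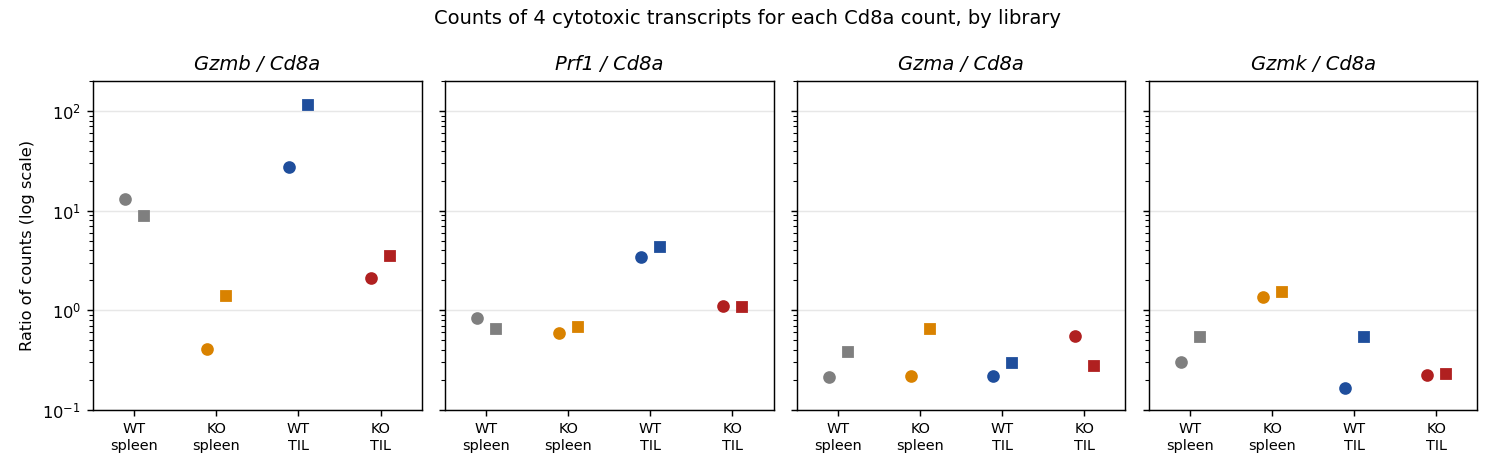
Counts of Gzmb, Prf1, Gzma and Gzmk per count of Cd8a (log axis) in each library, with circles for replicate 1 and squares for replicate 2. Gzmb is lower in KO than in WT in both tissues, Prf1 is lower in KO in TIL, and Gzma spans 0.213 to 0.641 in all 8 libraries.

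Per 1000 counts of the CD3 chains, Gzma was at 139.9 and 105 in KO TIL and 5.10 and 0.726 in WT TIL. The 2 KO libraries, which differed 2.82-fold in CPM, were then close. Gzmk was at 57.5 and 88.0 against 3.86 and 1.32, and Prf1 at 284 and 411 against 80.3 and 10.8, so that Prf1 no longer overlapped. Gzmb was at 536 and 1347 against 652 and 286 and still overlapped. This scaling moved the median KO to WT difference of all genes in TIL from log2 0.04 to 1.35, since replicate 1 of KO had few CD3 reads. Above that median lay Gzma (5.40), Gzmd (5.17), Gzmk (4.81), Gzmf (4.53), Gzme (4.16), Gzmm (4.07), Gzmc (3.855) and Prf1 (2.93). Gzmb (1.01) lay below it, and none of these genes passed in edgeR (adjusted p from 0.103 to 0.607). In spleen, Gzmb per 1000 CD3 counts was 0.321 and 0.944 in KO and 16.9 and 10.4 in WT. Per count of Foxp3, Gzmb came to 0.0279 and 0.0571 in KO spleen and 0.970 and 0.911 in WT spleen, and to 44.6 and 1433 in KO TIL and 78.0 and 18.4 in WT TIL, again separated in spleen and overlapping in TIL.

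From spleen to tumor, perforin was called in both genotypes. In WT it rose by log2 5.13 ± 0.80 (adjusted p = 0.00587), and in KO by 8.85 ± 1.09 (adjusted p = 0.0485). In WT, Gzmb and Prf1 were the 2 members called of 8 tested, against 5.97% of genes. Gzma (log2 2.45 ± 0.86, adjusted p = 0.139) and Gzmk (1.83 ± 0.71, adjusted p = 0.178) were higher in both WT TIL libraries than in both WT spleen libraries and did not pass. Gzmc, Gzmf, Gzmm and Srgn overlapped between the WT tissues, and 4 members higher without overlap compare with 25.1% of genes. In KO, Gzma (log2 7.73 ± 0.83, adjusted p = 0.0420) and Prf1 were called, against 1.35% of genes. Gzmc (8.51 ± 1.39), Gzmf (9.18 ± 1.52), Gzmk (5.45 ± 0.96) and Gzmm (2.74 ± 0.91) were higher without overlap and did not pass (adjusted p from 0.0583 to 0.127). Gzmd and Gzme had 0 counts in spleen, so that mean levels in KO TIL were at least 622-fold and 572-fold higher, against a floor of 3 counts per library, and in WT TIL at least 14.3-fold and 26.8-fold. The bounds in WT rest on replicate 1 (3.05 and 5.42 CPM), since replicate 2 had 0 counts of Gzmd and 0.304 CPM of Gzme. Srgn was the only member not higher in KO TIL than in KO spleen (log2 -0.24 ± 0.24), and was lower without overlap, as 32.9% of genes were. The 9 members higher without overlap compare with 30.6% of genes. DESeq2 called 5 members in WT and 9 in KO, where it called 9.91% and 19.7% of genes. The median over the members was log2 2.45 in WT (8 tested) and 8.68 in KO (10 tested), with medians over all genes of -0.04 and 0.01. The KO call of Gzma and both calls of Prf1 may depend on single libraries. Fits with 1 library in a group cannot decide this. With 1 splenic library left out, log2 was 7.28 and 8.50 for Gzma in KO. For Prf1 it was 8.98 and 8.83 in KO and 5.23 and 5.09 in WT. Beside these changes, Cd8a was at 2.33 to 5.95 CPM in spleen and 9.68 to 1214 CPM in TIL, and 6 melanoma genes summed to 3.69 to 6.74 CPM in spleen and 829.7 to 3198 CPM in TIL.

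The difference between the KO to WT effects of TIL and spleen was positive in 7 of the 8 members in which it could be estimated. Beside the value of Gzmb given above, it was log2 6.07 ± 1.69 for Gzmc, 5.61 ± 2.10 for Gzmf, 5.28 ± 1.22 for Gzma, 3.73 ± 1.27 for Prf1, 3.62 ± 1.09 for Gzmk and 3.02 ± 1.30 for Gzmm. None passed in edgeR (adjusted p from 0.275 to 0.626), and those 7 had an unadjusted p under 0.05, against 7.83% of genes. DESeq2 called 5 of them (Gzma, Gzmb, Gzmc, Gzmk and Prf1), where it called 1.85% of genes. For Srgn it was -0.37 ± 0.51. For Gzmd and Gzme no difference of effects could be estimated, since spleen had 0 counts in both genotypes.

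The make-up of the granzyme and perforin pool differed between the genotypes in both tissues. Levels were divided by exon length for this, so that genes can be compared, and the 9 genes other than Srgn were summed in each library. Gzmb made up 85.9 and 73.8% of the sum in WT spleen and 12.4 and 24.8% in KO spleen. In TIL it made up 87.2 and 96.0% in WT and 45.5 and 59.2% in KO. Gzmb thus dominated both WT tissues and held a lower share in KO in both, without overlap. In KO spleen the largest share was that of Gzmk, at 42.0 and 27.7%, against 2.06 and 4.52% in WT spleen. Gzmk is typical of effector memory T cells. In KO TIL the shares of Gzma (19.2 and 7.49%), Prf1 (16.6 and 12.5%) and Gzmc (7.53 and 7.68%) each exceeded those of both WT TIL libraries (Gzma 1.10 and 0.394%, Prf1 7.41 and 2.5%, Gzmc 2.25 and 0.468%). The Gzmc share was nearly the same in the 2 KO TIL libraries, although the sum itself was 1630 in one and 11955 in the other, on the per-length scale. The sum was 17.8 and 25.3 in KO spleen, 152 and 81.9 in WT spleen and 3846 and 1995 in WT TIL. A share falls when any other gene rises, so the shares are not independent of each other, and they are given with no test.

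**Figure D4:**
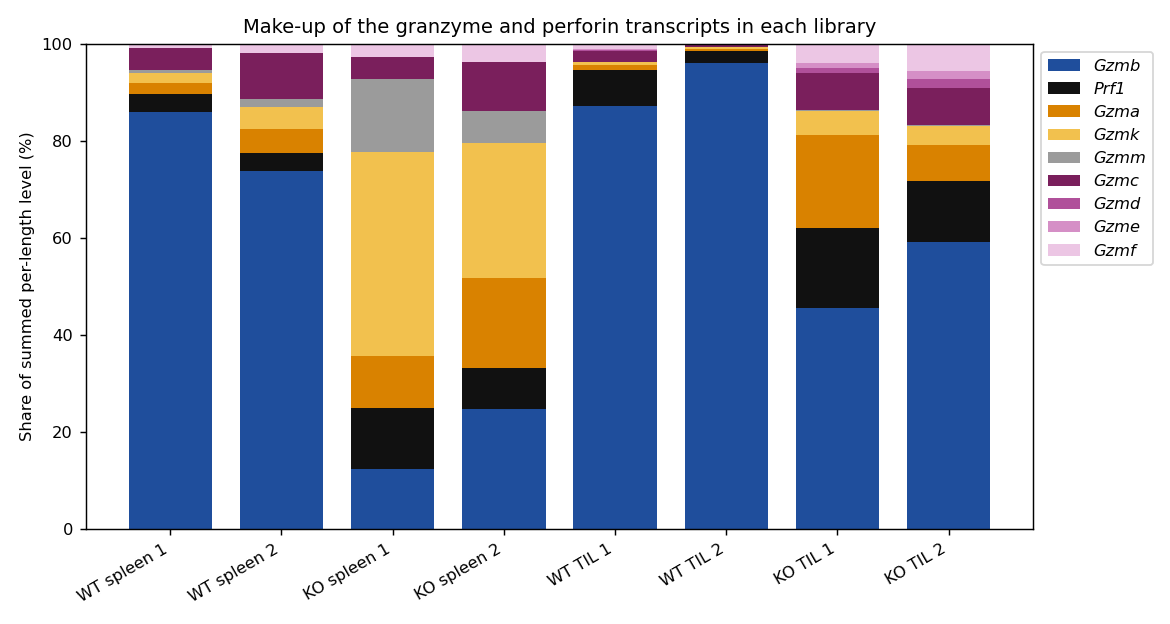
Share of each of 9 genes (percent, bars sum to 100) in the summed per-length level of granzymes and perforin in each library. Gzmb takes 73.8 to 96.0% in the 4 WT libraries and 12.4 to 59.2% in the 4 KO libraries.

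Per length, Gzmb over Prf1 was 0.989 and 2.97 in KO spleen against 22.6 and 19.9 in WT spleen, and 2.74 and 4.75 in KO TIL against 11.8 and 38.4 in WT TIL. The ratio of protease to pore-forming transcript was lower in every KO library than in every WT library. Gzma over Gzmb was 0.865 and 0.750 in KO spleen and 0.422 and 0.126 in KO TIL, against 0.0265 and 0.0686 in WT spleen and 0.0126 and 0.00411 in WT TIL. This ratio, too, separated the 4 KO from the 4 WT libraries. The sum of Gzmc to Gzmf over Gzmb gave the same separation, with 0.281 to 0.576 in KO and 0.00595 to 0.153 in WT libraries. All of these ratios contain Gzmb, so they are not independent results. In spleen the CPM of Gzma overlapped between the genotypes, while that of Gzmb did not. How many ratios of other gene pairs separate the genotypes was not counted, and the ratios are given with no test. Srgn per length stayed between 1369 and 2822 in all libraries, while its ratio to the sum of the 9 genes went from 77.4 to 107 in KO spleen and 13.4 to 25.0 in WT spleen to 0.115 to 1.41 in TIL. The scaffold transcript was thus in large excess in spleen and near or below parity in TIL.

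Beside the members, 56 genes of wider lists were examined, called pathway genes below for short. They were 12 genes of granule proteins and processing, 9 of exocytosis, 5 serpins, 9 granzyme substrates and 5 other killing ligands. The other 16 were transcription factors, among them the targeted Prdm1. None of the 56 passed in edgeR between KO and WT in spleen (54 tested) or TIL (55 tested). The unadjusted p was under 0.05 for 1 gene in spleen, against 2.95% of all genes, and for 11 in TIL, against 9.87%. In spleen this gene was Rab27a, a small GTPase that docks granules at the membrane, at 147 and 167 CPM in KO and at 102 and 71.7 in WT (log2 0.85 ± 0.35). In TIL, DESeq2 called 4, all higher in KO, against 3.48% of all genes: Eomes, Lamp1, Tcf7 and Bach2. Of these, 3 were from the list of transcription factors, and only Lamp1 was from that of granule proteins. Eomes, a T-box factor of cytotoxic lymphocytes, was at 18.4 and 60.9 CPM in KO and at 2.94 and 1.21 in WT (edgeR log2 4.25 ± 0.82, adjusted p = 0.228). Tcf7, a factor of naive and memory-like T cells, was at 55.0 and 66.3 CPM in KO and at 9.37 and 19.7 in WT (2.05 ± 0.45). Bach2, a repressor of effector genes, was at 8.41 and 6.21 CPM in KO and at 1.01 and 1.99 in WT (2.28 ± 0.59). Lamp1, a lysosomal membrane protein that reaches the cell surface when granules are released, was at 1088 and 266 CPM in KO and at 58.7 and 24.6 in WT (4.02 ± 0.86). Lamp1 was highest in the macrophage-rich KO replicate 1, whose part in it was not tested. Stx11, a fusion protein of granule release, was at 193 and 176 CPM in KO and at 422 and 365 in WT (log2 -1.09 ± 0.28, adjusted p = 0.308), and Lyst, which controls the size of lytic granules, was at 54.6 and 62.6 against 26.1 and 20.5 CPM (1.33 ± 0.30, adjusted p = 0.267).

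Between spleen and tumor, 12 of the 55 pathway genes tested rose and 3 fell in WT cells, where 4.10% of all genes rose and 1.87% fell. Among granule proteins, Nkg7, which is needed for granule release, rose by log2 2.85 ± 0.52, from 143 and 228 CPM in spleen to 1545 and 1130 in TIL. Ctsw (2.01 ± 0.44), Ctsl (3.09 ± 0.68) and the tetraspanin Cd63 (5.22 ± 0.82) rose too, and Lamp1 fell by 2.27 on the log2 scale. Ctsl and Cd63 were highest in KO TIL replicate 1, the macrophage-rich library, at 528 and 438 CPM, and the part of other cells in them was not tested. Of the 5 serpin genes examined, 3 rose: Serpinb9, which inhibits granzyme B (2.81 ± 0.52), Serpinb9b (7.03 ± 1.66) and Serpina3g (2.16 ± 0.54). Serpinb9 went from 62.3 and 38.8 CPM in WT spleen to 459.6 and 248 in WT TIL. Serpinb9b was at 0.0898 and 0 CPM in WT spleen, near or below the floor, and at 13.04 and 0.439 CPM in WT TIL. The size of its rise thus rests mostly on WT TIL replicate 1 and on a splenic level near the floor. The regulators Tbx21 (3.0 ± 0.53), Zeb2 (2.54 ± 0.63) and Bhlhe40 (3.30 ± 0.58) rose, and Tcf7 (-4.07 ± 0.54) and Bach2 (-3.60 ± 0.63) fell. Zeb2 was at 52.6 and 15.6 CPM in WT TIL. It, too, was highest in the macrophage-rich KO TIL replicate 1 (286 CPM), and the part of other cells in it was not tested. Fasl (2.23 ± 0.45) and Ifng (2.43 ± 0.46), which act beside granules, rose. No gene of the substrate list (8 tested) or of the exocytosis list (9 tested) passed. In KO cells 1 of 55 rose, Bhlhe40 (2.34 ± 0.25, adjusted p = 0.0420), and 1 fell, Tcf7 (-2.47 ± 0.23, adjusted p = 0.0374), where 0.803% of all genes rose and 0.543% fell.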

How the data were processed

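RNA of 8 libraries was sequenced as paired reads. The authors trimmed reads with Trimmomatic 0.36, aligned them to GRCm38 with STAR 2.5.2b and deposited counts of uniquely mapped reads in exons per gene from featureCounts (Subread 1.5.2), the unit used here; no strand setting is given in the sources used here. A deposited normalized table was not used. Each comparison (KO against WT in spleen and in TIL, TIL against spleen in WT and in KO) was fitted on its 4 libraries with edgeR 4.0.16 (TMM scaling, filterByExpr, quasi-likelihood F test, two-sided), and the difference between tissues over 8 libraries. A call needed a Benjamini-Hochberg adjusted p under 0.05 over all genes tested and an absolute log2 fold change over 1. Standard errors are the log2 fold change divided by the square root of F. DESeq2 1.42.0 (Wald test, the study's method), other scalings and filters, a replicate block and leaving out each library were alternatives (R 4.3.3). The tests were checked on simulated counts. Promoters are those of RefSeq. All members were named. Pathway genes were named where called, or as examples with the smallest unadjusted p. Members and lists were chosen with earlier results of these data known. Intervals of counting error are small at these depths except near the floor of 3 counts, and 2 libraries per group limit the precision.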

Additional observations from a re-analysis of the deposited data

Results flagged for a closer look

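For Gzmc and Gzmf, both KO libraries were below both WT libraries in spleen and above both in TIL. Of all genes tested, 15.7% were lower in KO without overlap in spleen and 18.0% higher in TIL. The share of genes with both was not counted. The difference between the effects was log2 6.07 for Gzmc (adjusted p = 0.367) and 5.61 for Gzmf (adjusted p = 0.552) by edgeR's interaction test, so neither passed, and DESeq2 called Gzmc and did not call Gzmf. Splenic Gzmf lay at 0.172 to 0.820 CPM, near the floor, from 8 and 12 counts in KO and 13 and 23 in WT. Its fitted difference in spleen was log2 -1.34 ± 0.84 (edgeR adjusted p = 0.878), so its direction there is not established. Cd8a showed the same signs, with a difference of effects of 5.21 ± 1.38 (edgeR adjusted p = 0.345), and its part was not tested. Outlying samples could not be examined, since each group holds 2 libraries.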

How the results depend on the processing

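Limits are the 2 libraries per group and KO TIL libraries whose transcripts go against their label and differ in CD3, Cd8a and macrophage genes. The 2 WT spleen libraries also differed, in Cd4, Tyrobp and Fcer1g, and the part of this in the splenic results was not tested. Member calls rose from the main count of 0 in spleen to 1 with DESeq2 (4 or 8 libraries), 2 with no filter and 2 with the replicate block. Splenic Gzmb was log2 -4.75 and -4.77 with DESeq2 on 4 and 8 libraries, -4.72 with no filter and -4.91 with the block, all past the threshold. Its log2 ran from -5.64 to -4.20 without single libraries, where leave-one-out assumes that the lone library varies like the other group. In TIL, 0 calls became 5 with DESeq2 on 4 or 8 libraries, 8 with no filter and 2 (Gzma and Gzmk) with the block, and Gzmb reversed to -0.0918 with the block and ran from -1.78 to 1.47 without single libraries. From spleen to TIL, 2 calls in WT became 5 and 4 with DESeq2 on 4 and 8 libraries and 7 with no filter. The 2 calls in KO became 9 with DESeq2 or no filter, 8 with CD3 scaling or edgeR on 8 libraries and 7 with the block. Calls in fits without single libraries are not counted here, since such fits rest on the assumption about the lone library. Interaction calls went from 0 to 5 with DESeq2 and 6 with no filter, with Gzmb at 5.37 and 5.34. The causes were not tested. CD3 scaling, under which the median of all genes came to as much as 1.37, reversed Srgn (0.53 in TIL, 1.18 for KO tissues, 0.64 for the interaction) and Gzmm (0.25, WT tissues). Without single libraries, WT tissue differences ran from -0.20 to 0.60 for Srgn, -1.32 to 0.51 for Gzmm and -0.33 to 4.57 for Gzmf. Same-numbered libraries shared only a number: their deviations from the group means correlated at r of -0.22 to 0.23 over 17870 genes in 6 pairs of groups. Over all genes, edgeR and DESeq2 called 0 and 75 in spleen, 0 and 761 in TIL, 981 and 1805 between WT tissues, 228 and 3813 between KO tissues and 0 and 307 for the interaction. Of 700 recomputed values, 546 were rated the same. For fits this means the same direction and side of the threshold, for counts and ratios of mean levels a similar value. Most fitted values belong to genes not called in the main fits, so keeping their side says little about stability.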

Other observations

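The remaining mouse granzyme genes of the cluster were nearly silent. Gzmg had 0 counts in 6 libraries and was at 0.190 and 9.50 CPM in KO TIL, at least 44.9-fold above WT TIL and at least 63.7-fold above KO spleen on the mean, against a floor of 3 counts per library. Gzmn had 0 counts in all 8 libraries.

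Among 8972 other genes with a mean of at least 10 CPM, those whose log2 CPM followed Gzmb most closely over the 8 libraries were Mvk (r = 0.959), Galnt3 (0.956), the chemokine Ccl4 (0.946), Ctla2b (0.940) and Trdmt1 (0.940). For Gzmc they were Eno3 (0.978), Tbrg4 (0.971), Cd8a (0.969), Cd8b1 (0.964) and Dnajc2 (0.960). Both genes of the CD8 coreceptor were thus among the 5 nearest to Gzmc and not among those of Gzmb. Among the members, Gzmc, Gzmd, Gzme and Gzmf followed each other at r of 0.935 to 0.989. Gzmb followed these 4 genes at 0.702 to 0.871, Prf1 at 0.907 and Gzmm at 0.309. These coefficients describe 8 libraries in 4 groups that share tissue and depth, and carry no test.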
